A study of Mus musculus with 6 samples.

Results

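The glutathione S-transferases followed here are 10 genes of mouse liver, chosen by symbol from the 29981 rows of the deposited table. They are Gstm1, Gstm2, Gstm3 and Gstm4 of the mu class, Gsta3 and Gsta4 of the alpha class, Gstp1 of the pi class, Gstt1 of the theta class, Gstk1 of the kappa class and the membrane-bound enzyme Mgst1. Each of the 10 had a row of its own. Livers came from C57BL/6 mice in which an Albumin-driven Cre recombinase deleted the lipid transporter Abca1 in hepatocytes (HSKO, n = 3), and from floxed controls whose genotype label reads wildtype (WT, n = 3). Food was withheld from all mice between 9 am and 1 pm, after which the liver was taken. The sources used here give neither age nor sex. The Albumin promoter directs Cre to hepatocytes, so other liver cells were not targeted, and total liver RNA was sequenced as paired-end stranded mRNA libraries. Whether each library came from a different mouse is not stated, so the p-values reflect variation among these libraries, which may be technical.

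Glutathione S-transferases join the tripeptide glutathione to electrophilic compounds, which makes drugs, oxidised lipids and other reactive metabolites easier to excrete. Hepatocytes are rich in these enzymes. The cytosolic classes share a fold and work as dimers, the kappa enzyme sits in mitochondria and peroxisomes, and Mgst1 is embedded in the endoplasmic reticulum and the outer mitochondrial membrane. Several members are known targets of the oxidant-sensing factor NRF2 and of the xenobiotic receptors CAR and PXR.

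The libraries were shallow, with 631020 to 702013 reads in HSKO and 838637 to 933319 in WT. The single row BC071253 held 46.2% to 57.8% of reads in HSKO and 43.1% to 52.9% in WT. Values below are normalised reads, meaning reads divided by the size factor the authors gave each library, so that 1 read counts for 1.33 to 1.46 in HSKO and 0.564 to 0.763 in WT. Abca1 itself had 2, 1 and 2 reads in HSKO against 20, 36 and 34 in WT, so all 6 libraries matched their labels. Among 2750 rows whose mean reached 10, limma called 320 lower in HSKO, which is 11.6% of rows tested, and 783 higher, which is 28.5%. Together these are 40.1% of rows. Here and below, a call is an adjusted p below 0.05 after Benjamini-Hochberg adjustment over all rows tested. The direction of calls depended on scaling. With quantile normalization 595 rows were higher and 502 lower, with edgeR and TMM 684 were higher and 601 lower, and upper quartile scaling gave 580 higher and 703 lower. Scaling to total reads gave 221 higher and 1044 lower, total reads less BC071253 429 higher and 913 lower, and the sum of hepatocyte markers 1079 higher and 21 lower.

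Gsta3 and Mgst1 fell in HSKO livers. Both Gstp1 and Gstm1 had lower means in HSKO but did not pass the test, and no member rose. The other 6 members had a mean below 10 and were not tested. Thus 2 of the 4 members tested were called lower and 0 higher, beside 11.6% and 28.5% of all rows. Their median log2 fold change was -0.67, and that of all rows tested was 0.07. In bulk liver RNA, fewer hepatocytes and less of a transcript per hepatocyte cannot be told apart.

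Gsta3, an alpha-class enzyme, is encoded on chromosome 1 from 21240589 to 21265661 in mm10, on the plus strand. Its normalised level was 62.8, 64.0 and 86.4 in HSKO replicates 1 to 3, against 123.6, 202 and 153 in WT replicates 1 to 3. Every HSKO library lay below every WT library. The means were 71.1 ± 13.3 in HSKO and 160 ± 39.6 in WT (SD, n = 3), and limma put the log2 fold change at -1.14 with an SE of 0.25 (adjusted p = 0.00195). Behind these levels were 43, 44 and 65 reads in HSKO and 162, 307 and 271 in WT. After correction for size factors, summed reads stood in a ratio of 0.445 (exact 95% interval 0.371 to 0.531, counting error only). No stretch of 50 bases in the principal Gsta3 transcript was found in a transcript of another gene.

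Mgst1, the microsomal enzyme, lies on chromosome 6 from 138140316 to 138156755 on the plus strand. Its normalised level was 153, 138 and 148 in HSKO against 196, 278 and 257 in WT. The HSKO libraries sat close together and all lay below the WT libraries. The means of 146 ± 7.74 in HSKO and 244 ± 42.6 in WT (SD, n = 3) corresponded to a limma log2 fold change of -0.72, with an SE of 0.23 and an adjusted p of 0.0196. The pooled read ratio was 0.594 (exact 95% interval 0.522 to 0.674). Leaving out HSKO replicate 2 ended the call (adjusted p = 0.0820), as did leaving out WT replicate 2 (adjusted p = 0.117). It was also lost with no filter on low rows (adjusted p = 0.0547) and with no mean-variance trend (adjusted p = 0.0516).

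Gstp1, the pi-class enzyme, is on chromosome 19 from 4035407 to 4037985 on the minus strand. Its normalised level was 61.4, 77.1 and 93.1 in HSKO, against 126, 84.2 and 155 in WT. The groups overlapped, because WT replicate 2 lay below HSKO replicate 3. Means were 77.2 ± 15.9 in HSKO and 122 ± 35.4 in WT (SD, n = 3), and the log2 fold change was -0.63 (SE 0.27, limma adjusted p = 0.0676). Gstp1 passed without WT replicate 2 (adjusted p = 0.0377) and without HSKO replicate 3 (adjusted p = 0.0468), and also when a mean of 50 was required of each row (adjusted p = 0.0369). Of the 50-base stretches of its principal transcript, 62.3% also occur in the neighbouring Gstp2. How many of these reads belong to each gene is therefore uncertain. The Gstp2 row itself held 0 reads in the 3 HSKO libraries and 2, 0 and 0 in WT.

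Gstm1, a mu-class enzyme, lies on chromosome 3 from 108012255 to 108017973 on the minus strand. Its normalised level was 73.1, 53.8 and 113 in HSKO and 92.3, 127 and 125 in WT. HSKO replicate 3 lay above WT replicate 1, so the groups overlapped. The means were 79.97 ± 30.2 in HSKO and 115 ± 19.5 in WT (SD, n = 3), and limma estimated a log2 fold change of -0.57 with an SE of 0.28 (adjusted p = 0.105). Without HSKO replicate 3 the estimate was -0.85 and passed (adjusted p = 0.0234), whereas without HSKO replicate 2 it was -0.32 (adjusted p = 0.433). The mu genes sit side by side on chromosome 3, and 23.1% of the 50-base stretches of Gstm1 recur in other genes, most of them in the pseudogene Gstm2-ps1.

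**Figure D1:**
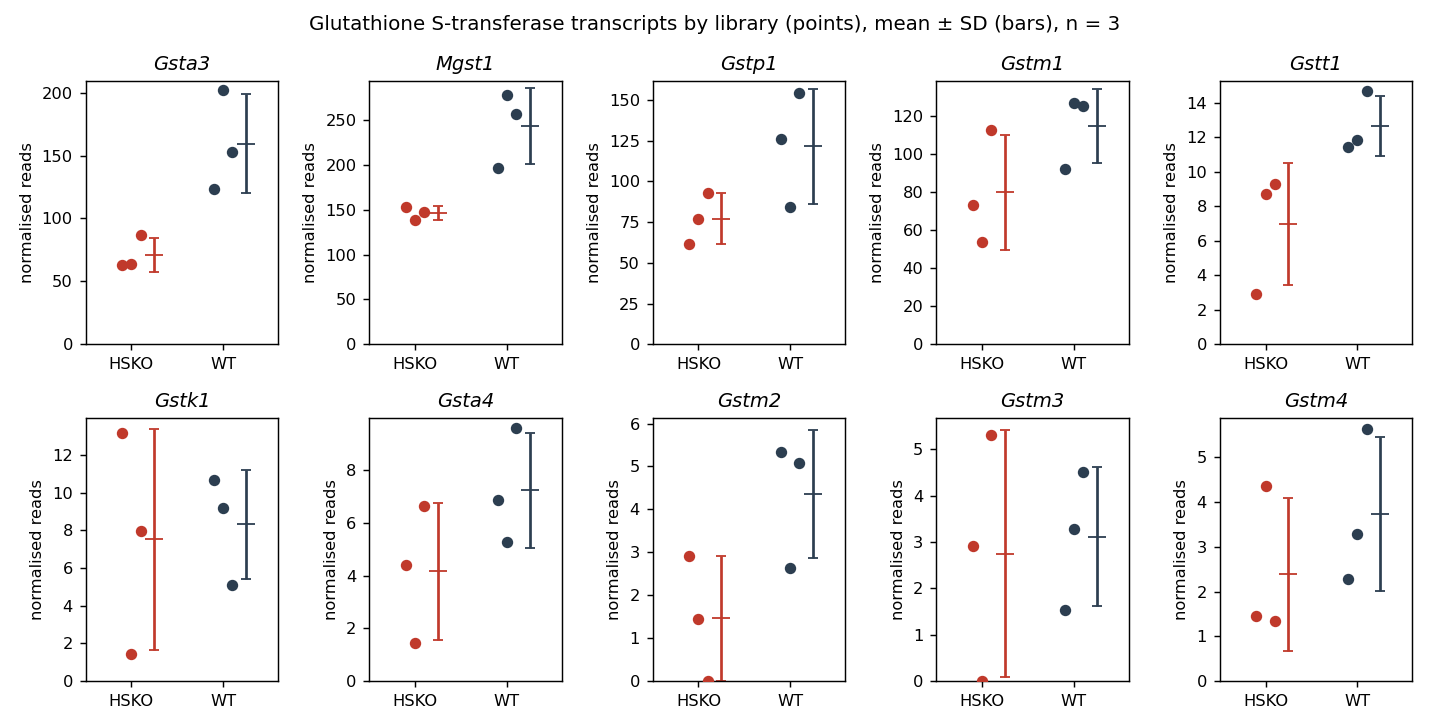
Normalised reads of the 10 members (vertical axes, each starting at 0) in 3 HSKO libraries (red, left) and 3 WT libraries (dark, right), with mean ± SD beside the points. For Gsta3, Mgst1 and Gstt1 the highest HSKO library lay below the lowest WT library, and for the other 7 members the groups overlapped.

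The 6 untested members rested on 0 to 26 reads per library. Gstt1, a theta-class enzyme on chromosome 10 (75783813 to 75798584), just missed the filter with a mean of 9.82. It had 2, 6 and 7 reads in HSKO and 15, 18 and 26 in WT, with every HSKO level below every WT level. Its normalised means were 6.99 ± 3.53 in HSKO and 12.7 ± 1.75 in WT (SD, n = 3), and its pooled read ratio was 0.551 (exact 95% interval 0.290 to 0.984). With no filter on low rows its log2 fold change was -0.89, and it did not pass (limma adjusted p = 0.245). Over all 10 members, 3 had groups that did not overlap with HSKO below WT, and 0 with HSKO above, of which Gsta3 and Mgst1 were among the 4 tested. Among all rows tested these shares were 20.1% and 31.4%.

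For the other 5 untested members the counting interval of the pooled ratio included 1. Gstk1, the kappa enzyme on chromosome 6 (42245935 to 42250447), had 9, 1 and 6 reads in HSKO and 14, 14 and 9 in WT, a ratio of 0.937 (exact 95% interval 0.487 to 1.73). Gsta4, which favours the lipid peroxidation product 4-hydroxynonenal and lies on chromosome 9 (78182774 to 78209349), had 3, 1 and 5 reads in HSKO and 9, 8 and 17 in WT, a ratio of 0.574 (0.242 to 1.22). The 3 other mu genes, between 107963696 and 108044894 on chromosome 3, were low throughout, and 9.36% of the 50-base stretches of Gstm2 and 28.8% of those of Gstm3 recur in other genes. Gstm2 had 2, 1 and 0 reads in HSKO and 7, 4 and 9 in WT, a ratio of 0.325 (0.0619 to 1.10). Gstm3 had 2, 0 and 4 reads in HSKO and 2, 5 and 8 in WT, a ratio of 0.867 (0.276 to 2.36). Gstm4 had 1, 3 and 1 reads in HSKO and 3, 5 and 10 in WT, a ratio of 0.602 (0.175 to 1.68). By counting error alone, a fall of the size seen for Gsta3 lies within the intervals of Gsta4, Gstm2, Gstm3 and Gstm4 but below that of Gstk1. These intervals leave out variation between libraries, so such a fall is not excluded for Gstk1 either. No difference was detectable at this depth for these 5 genes. With the deposited scaling all 10 group means were nominally lower in HSKO. Per hepatocyte-marker read, 4 of the 10 (Gstm1, Gstm3, Gstm4 and Gstk1) had a nominally higher mean in HSKO.

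**Figure D2:**
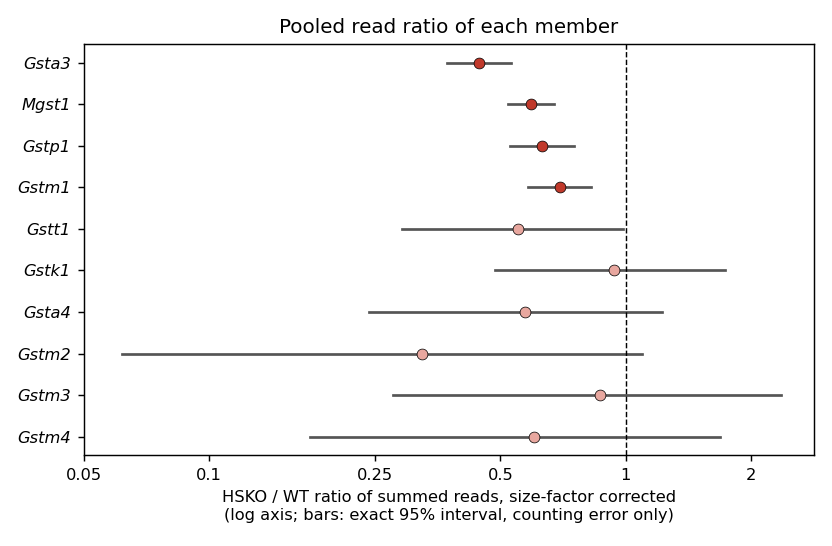
Ratio of summed reads in HSKO over WT, corrected for size factors (horizontal log axis), for each member, with exact 95% intervals that cover counting error only. Dark points are the 4 tested members, with ratios between 0.445 and 0.695, and pale points the 6 untested members, where the Gstt1 interval ends just below 1 and the others cross it.

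Levels can be set beside each other only per length, here as normalised reads per kilobase of the principal GENCODE transcript. In HSKO the order was Mgst1 at 125 ± 6.63, Gstp1 at 94.0 ± 19.3, Gstm1 at 62.0 ± 23.4 and Gsta3 at 48.8 ± 9.13 (SD, n = 3). In WT it was Mgst1 at 209 ± 36.5, Gstp1 at 148 ± 43.1, Gsta3 at 109 ± 27.2 and Gstm1 at 89.1 ± 15.1. Gsta3 thus stood below Gstm1 in HSKO and above it in WT. Neighbours in either order overlapped within 1 SD, except Mgst1 and Gstp1 in HSKO. The 6 remaining members lay between 1.37 and 8.10 per kilobase in HSKO and between 2.19 and 12.2 in WT.

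A plain ratio of members within a library does not depend on how libraries are scaled to each other. Ratios on the scale of log2(value + 1), used below for the test, do depend on it for members with few reads. The ratio of Gsta3 to Gstm1 reads was 0.860, 1.19 and 0.765 in HSKO, against 1.34, 1.59 and 1.22 in WT. Every HSKO ratio was below every WT ratio. On the scale of log2(value + 1) the difference was -0.57 (two-sided exact permutation p = 0.1, which is as low as groups of 3 allow, and adjusted p = 0.9 over the 9 ratios to Gstm1). Gsta3 was likewise lower against Mgst1, at 0.410, 0.463 and 0.586 in HSKO and 0.630, 0.726 and 0.596 in WT. Against Gstp1 it was 1.02, 0.830 and 0.929 in HSKO and 0.982, 2.40 and 0.989 in WT, and these values overlapped. The other 8 ratios to Gstm1 overlapped between groups, with exact permutation p between 0.5 and 1. For Mgst1 the log2 ratio to Gstm1 was 0.93 ± 0.49 in HSKO and 1.08 ± 0.05 in WT, and for Gstp1 it was -0.005 ± 0.45 in HSKO and 0.05 ± 0.56 in WT (SD, n = 3).

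Part of the hepatocyte markers fell in HSKO as well. Of the 14 markers, 7 were called lower and 0 higher, beside 11.6% and 28.5% of all rows. The median log2 fold change of the 14 was -0.62. DESeq2 called 10 lower, edgeR and upper quartile scaling 12, and quantile normalization and both scalings to total reads 13. Of all rows, DESeq2 called 11.8% lower, edgeR 21.9%, upper quartile scaling 25.6% and quantile normalization 18.3%. Total reads called 38.0% and total reads less BC071253 33.2%. By contrast, 1 marker was called with no filter on low rows, where 211 of 13807 rows were lower. With no mean-variance trend 0 markers were, and 266 of 2750 rows. Fgg, Hpx and Apoa2, which encode plasma proteins, had the smallest p among the 7 markers called. Their log2 fold changes were -0.73, -0.82 and -0.69 (limma adjusted p = 0.0174, 0.0187 and 0.0265). Their calls were kept in 4, 3 and 2 of the 6 fits that left out 1 library. Over the whole list, 0 markers were called when HSKO replicate 1 or HSKO replicate 2 was left out, 3 when WT replicate 2 was and 8 when HSKO replicate 3 was. The summed level of the 14 markers ranged from 9715 to 15376 in HSKO and from 16580 to 19286 in WT, and no marker was at 0. The part of this in the fall of the transferases was not tested.

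Set against those markers, the groups overlapped for 3 of the 4 tested members. Marker reads were summed without weights, and Alb gave the most in every library. Its part ran from 5783 of 21726 marker reads in WT replicate 1 to 11463 of 26849 in WT replicate 2. Gsta3 gave 6.47, 5.58 and 5.62 reads per 1000 hepatocyte-marker reads in HSKO and 7.46, 11.4 and 7.93 in WT, with every HSKO library below every WT library. Mgst1 gave 15.8, 12.0 and 9.60 in HSKO and 11.8, 15.8 and 13.3 in WT, which overlapped. Gstp1 averaged 6.36 ± 0.33 in HSKO and 6.79 ± 1.77 in WT, and Gstm1 6.52 ± 1.59 in HSKO and 6.42 ± 0.81 in WT (SD, n = 3). With libraries scaled to the summed markers, limma called none of the 4 members (0.764% of rows lower and 39.2% higher). The log2 fold change was then -0.57 for Gsta3 (adjusted p = 0.142), -0.15 for Mgst1 (0.765), -0.06 for Gstp1 (0.911) and -0.001 for Gstm1 (0.998), where the median of all rows was 0.62. In that scaling 0 of the 4 members had an unadjusted p below 0.05. By adjusted p, DESeq2 with its own size factors called 3 of them and edgeR with TMM 4.

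**Figure D3:**
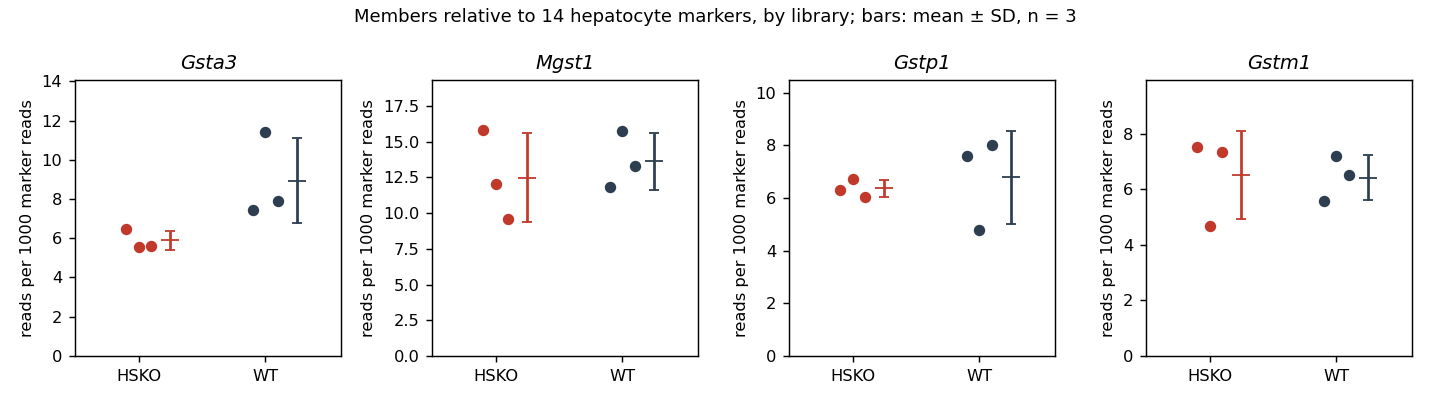
Reads of the 4 tested members per 1000 reads of 14 hepatocyte markers (vertical axes from 0) in each HSKO library (red, left) and WT library (dark, right), with mean ± SD. Only Gsta3, at 5.58 to 6.47 in HSKO and 7.46 to 11.4 in WT, had groups that did not overlap.

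All 4 log2 fold changes were below 0 in each of the 8 scalings. Their order, with Gsta3 lowest, then Mgst1, Gstp1 and Gstm1, is largely set by construction, since rescaling a library moves its genes together. With upper quartile scaling, quantile normalization, edgeR with TMM, total reads and total reads less BC071253, all 4 were called lower. These scalings called 25.6%, 18.3%, 21.9%, 38.0% and 33.2% of all rows lower and 21.1%, 21.6%, 24.9%, 8.04% and 15.6% higher. In these scalings the median of the 4 members was -0.97, -1.14, -0.92, -1.34 and -1.16, while the median of all rows was -0.21, -0.02, -0.13, -0.57 and -0.39. DESeq2 called Gsta3, Mgst1 and Gstp1 (11.8% of rows lower and 21.2% higher), with Gstm1 at an adjusted p of 0.0611. As a share of all reads, the 10 members together made up 0.0434% ± 0.0105 in HSKO and 0.119% ± 0.0353 in WT (SD, n = 3). The share was 0.0410%, 0.0343% and 0.0549% in HSKO and 0.0846%, 0.118% and 0.155% in WT.

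**Figure D4:**
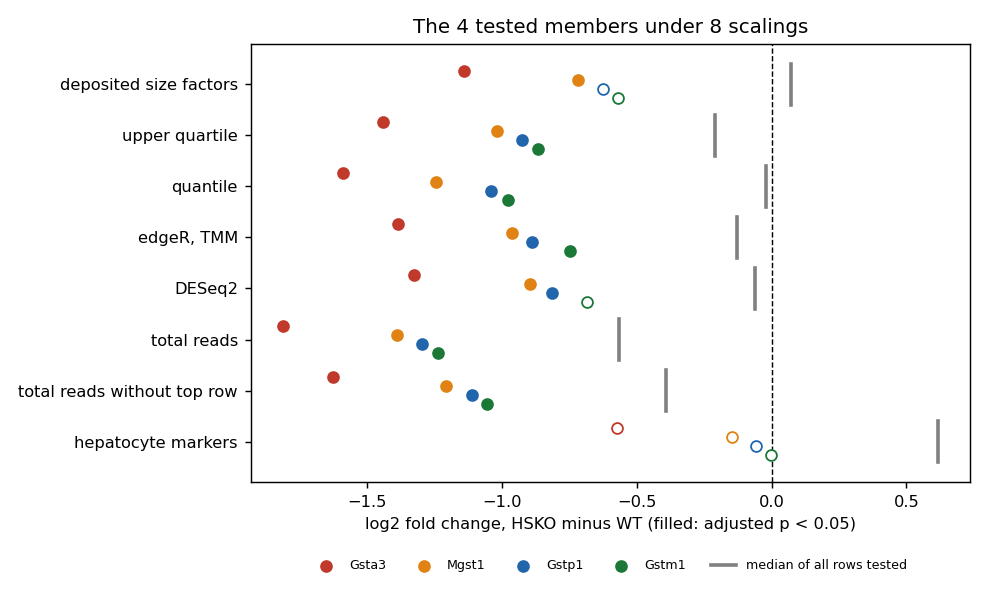
Log2 fold change of the 4 tested members, HSKO minus WT (horizontal axis), under 8 ways of scaling the libraries (rows). Filled circles passed an adjusted p below 0.05, open circles did not, and grey bars mark the median of all 2750 rows, which moved between -0.57 and 0.62. Rescaling moves the members together, so their order carries no information on stability.

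The antioxidant response element, the NRF2 binding motif, was searched in the 250 bases before the RefSeq start site as TGACNNNGC and TGAGNNNGC, on both strands. RefSeq windows on GRCm38.p6 were used for 9 of the 10 members, all except Gsta4. RefSeq starts can differ from the GENCODE positions given above. The windows of Mgst1, Gstp1 and Gstt1, for example, reach into the gene as GENCODE places it. Either spelling occurred in 4 of the 9, against 10.2% of 32851 mouse promoter windows for TGACNNNGC, 14.4% for TGAGNNNGC and 23.0% for either. The windows of the called genes Gsta3 (chr1:21240335-21240584, plus strand) and Mgst1 (chr6:138140277-138140526, plus strand) each held TGACNNNGC once, Mgst1 on the reverse strand, and a second RefSeq window of Mgst1 held neither. Gstp1 (chr19:4037913-4038162, minus strand) held TGAGNNNGC at 2 places and Gstt1 once. The windows of Gstm1 to Gstm4 and Gstk1 held neither spelling. The 3 promoters of tested members with a match are shown 5′ to 3′ up to the base before the start, with matches in capitals. A match is a sequence description, not evidence of binding.
Gsta3: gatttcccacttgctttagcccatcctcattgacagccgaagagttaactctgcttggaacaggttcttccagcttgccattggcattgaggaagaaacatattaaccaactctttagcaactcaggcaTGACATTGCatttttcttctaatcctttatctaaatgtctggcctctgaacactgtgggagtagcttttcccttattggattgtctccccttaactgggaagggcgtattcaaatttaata
Mgst1: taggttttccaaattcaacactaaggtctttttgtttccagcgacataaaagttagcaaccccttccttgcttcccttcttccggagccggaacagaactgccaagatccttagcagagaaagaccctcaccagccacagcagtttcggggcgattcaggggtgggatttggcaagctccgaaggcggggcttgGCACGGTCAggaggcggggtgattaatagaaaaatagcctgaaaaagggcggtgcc
Gstp1: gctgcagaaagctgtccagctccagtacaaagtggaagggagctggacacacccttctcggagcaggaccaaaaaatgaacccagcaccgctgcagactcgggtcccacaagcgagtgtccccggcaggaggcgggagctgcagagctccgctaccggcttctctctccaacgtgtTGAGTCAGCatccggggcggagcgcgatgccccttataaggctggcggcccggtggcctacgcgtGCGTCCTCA

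Other genes of the family gave few reads. Of 15 further transferase rows found, 3 had no read in any library, which were Gstt4, Gsto2 and Mgst2. For each of them 0 reads in a library leave an expected count of up to about 3 (one-sided 95% bound, counting error only). Gstz1, the zeta enzyme of tyrosine breakdown, was the 1 further row tested, at 70.2, 75.6 and 97.1 in HSKO and 103, 95.4 and 105 in WT. Its log2 fold change was -0.33 (SE 0.24, limma adjusted p = 0.277), and relative to hepatocyte markers it was 0.24. Gstt2 had 7 reads over the HSKO libraries and 37 over WT, a pooled ratio of 0.410 (exact 95% interval 0.154 to 0.932). Gstm6 had 10 and 41 reads (ratio 0.529, interval 0.236 to 1.07). Gstm7, Gsta2, Gstm5, Gstt3, Gstcd, Mgst3, Hpgds and the row shared by Gsto1 and AK208069 had 1 to 13 reads over the HSKO libraries and 2 to 31 over WT, and each interval included 1.

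Among genes that make, recycle and use glutathione, 11 of 26 rows were tested. Of these 2 were lower and 0 higher, beside 11.6% and 28.5% of all rows. The median log2 fold change of the 11 was -0.58. The count of lower rows was 4 with quantile normalization, 5 with upper quartile scaling and with edgeR, 8 with total reads less BC071253 and 10 with total reads. It was 0 relative to hepatocyte markers, where 1 row was higher. In this order, these scalings called 18.3%, 25.6%, 21.9%, 33.2%, 38.0% and 0.764% of all rows lower. Glo1, the glyoxalase that takes methylglyoxal bound to glutathione, averaged 13.1 ± 3.89 in HSKO and 29.9 ± 4.13 in WT (SD, n = 3, limma adjusted p = 0.00564). Hagh, the next enzyme of that pathway, averaged 15.3 ± 6.95 in HSKO and 27.4 ± 5.19 in WT (adjusted p = 0.0418). Its call was lost in 4 of the 6 fits that left out 1 library, with an adjusted p of up to 0.181. Relative to hepatocyte markers neither was called (adjusted p = 0.189 and 0.496). Gclc, the catalytic subunit of the rate-limiting enzyme of glutathione synthesis, was at 17.3 ± 9.48 in HSKO and 26.5 ± 5.11 in WT and did not pass (adjusted p = 0.116). The row shared by AK089283 and Slc7a11 went the other way, at 18.9 ± 1.59 in HSKO and 11.8 ± 3.40 in WT. Every HSKO library lay above every WT library in that row, which did not pass either (limma adjusted p = 0.108).

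Among NRF2 targets that are not transferases, 4 of 11 tested rows were lower and 0 higher (median -0.75), beside 11.6% and 28.5% of all rows. In the other scalings 4 to 11 were lower, with all 11 in both scalings to total reads and 9 with upper quartile scaling, except that relative to hepatocyte markers 1 was (median -0.19). Total reads called 38.0% of all rows lower, total reads less BC071253 33.2% and upper quartile scaling 25.6%. DESeq2 called 11.8%, quantile normalization 18.3%, edgeR 21.9% and hepatocyte markers 0.764%. The 3 NRF2 targets with the smallest p were Abcc2, which exports glutathione conjugates into bile, the transketolase Tkt and the epoxide hydrolase Ephx1. Abcc2 averaged 23.9 ± 3.81 in HSKO and 64.7 ± 5.18 in WT (SD, n = 3, log2 fold change -1.41, limma adjusted p = 0.000773), and it kept its call in all 8 scalings. Tkt and Ephx1 had log2 fold changes of -1.06 and -1.03 (adjusted p = 0.0120 and 0.0133), and neither was called relative to hepatocyte markers. Without WT replicate 3 their adjusted p rose to 0.0525 and 0.115 and the list held 1 call. The NRF2 gene Nfe2l2 was below the filter, at 1.46, 1.45 and 10.6 in HSKO and 10.7, 8.55 and 9.02 in WT. HSKO replicate 3 lay within the WT range, while the other HSKO libraries held 1 read each. Its inhibitor Keap1 averaged 10.9 ± 3.33 in HSKO and 9.61 ± 1.06 in WT (adjusted p = 0.802).

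Nr1i3, which encodes the receptor CAR, rose in HSKO. It was at 108, 71.3 and 112 in HSKO and 41.2, 37.5 and 38.4 in WT, with every HSKO library above every WT library (log2 fold change 1.27, SE 0.26, limma adjusted p = 0.00114). Its fold change was above 0 in all 8 scalings and called in 7, the exception being total reads (adjusted p = 0.0794). Of 13 tested rows of CAR and PXR targets, 3 were lower and 0 higher (median -0.51), beside 11.6% and 28.5% of all rows. Both scalings to total reads gave 10 lower, edgeR 7, upper quartile scaling 6, quantile normalization and DESeq2 5, and hepatocyte markers 0 (median 0.02). Of all rows, total reads called 38.0% lower, total reads less BC071253 33.2%, edgeR 21.9% and upper quartile scaling 25.6%. Quantile normalization called 18.3%, DESeq2 11.8% and hepatocyte markers 0.764%. The 3 targets called lower with the deposited scaling were the row shared by Cyp2c29 and Cyp2c53-ps, the shared Ugt1a row and Cyp2c50. Their log2 fold changes were -1.01, -0.77 and -0.66 (limma adjusted p = 0.00273, 0.0352 and 0.0461). The CAR targets Cyp2b9, Cyp2b10 and Cyp2b13 had no read in any library. The call of the Ugt1a row was kept in 1 of the 6 fits that left out 1 library, and that of Cyp2c50 in 1, with an adjusted p of up to 0.155 and 0.147.

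Of the other regulators, Ppara, the fatty acid sensor, fell to 19.6 ± 6.28 in HSKO against 42.3 ± 2.72 in WT (SD, n = 3, log2 fold change -1.12, limma adjusted p = 0.00429), and the call ended relative to hepatocyte markers (adjusted p = 0.168). Hnf4a was at 67.5 ± 11.1 in HSKO and 69.9 ± 4.54 in WT, and Rxra at 41.5 ± 4.48 in HSKO and 55.2 ± 10.4 in WT. Neither passed (adjusted p = 0.861 and 0.223). Nr1i2, the gene of PXR, was below the filter with 17 reads over HSKO and 48 over WT. So were Ahr (5 and 20), Arnt (9 and 24), Mafg (17 and 18) and the row shared by Stat5b and AK088966 (7 and 36).

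Genes of the hepatocytes around the central vein were lower in HSKO more often than those around the portal tract, a difference that was not itself tested. Of 8 tested pericentral rows 7 were lower and 0 higher (median -0.93), beside 11.6% and 28.5% of all rows. Aldh1a1, Oat and Cyp2e1 had the smallest p, with log2 fold changes of -1.42, -1.10 and -0.82 (limma adjusted p = 0.00119, 0.00509 and 0.00939). Of 11 tested periportal rows 0 were lower and 2 higher (median 0.02), Pck1 at 0.67 and Sds at 1.12 (adjusted p = 0.0201 and 0.0213). Leaving out 1 library gave 4 to 7 lower pericentral rows, with 4 without HSKO replicate 3, where Cyp2e1 was not called (adjusted p = 0.0567). Pck1 and Sds kept their calls in 4 and 2 of these 6 fits, and 0 periportal rows were higher without WT replicate 2. Relative to hepatocyte markers 0 pericentral rows were lower (median -0.37) and 3 periportal rows higher (median 0.58). In that scaling 0.764% of all rows were lower and 39.2% higher, with a median of 0.62. With scaling to total reads 8 pericentral and 5 periportal rows were lower, beside 38.0% of all rows, and Pck1 was at -0.0003. The part of zonation in the values of the transferases was not tested.

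Markers of other liver cells were scarce. Kupffer cell markers summed to 42.2 to 77.1 in HSKO and 54.1 to 92.8 in WT over 8 rows, and Cd5l was called lower (limma adjusted p = 0.0442, and 0.248 without WT replicate 2). Marco, the only other Kupffer row tested, had the higher mean in HSKO, at 15.1 ± 11.4 against 8.77 ± 9.27 in WT (limma adjusted p = 0.219). The median log2 fold change of these rows was -0.08. Endothelial markers summed to 4.36 to 23.4 in HSKO and 23.7 to 25.2 in WT over 5 rows, and 0 of these passed the filter. Stellate markers summed to 8.77 to 14.5 in HSKO and 25.9 to 30.3 in WT over 5 rows. Dcn, the only stellate row tested, gave most of each WT sum, at 18.3 to 21.1. It was called lower (limma adjusted p = 0.00626), so the sum and this call rest largely on the same gene. Cholangiocyte markers summed to 5.32 to 17.5 in HSKO and 10.7 to 15.8 in WT, with Krt19 and Krt7 at 0. Red blood cell markers summed to 14.5 to 21.3 in HSKO and 14.1 to 25.01 in WT over 4 rows. Other leukocyte markers summed to at most 2.66 in HSKO and 3.29 in WT, with Cd3e, S100a8 and S100a9 at 0. The stellate sums were lower in every HSKO library than in every WT library, as were 20.1% of all rows tested. The endothelial sums all but met, at 23.4 in HSKO and 23.7 in WT, where 1 HSKO read counts for 1.33 to 1.46. The part of these cells in the members' values was not tested.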

How the data were processed

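Liver mRNA of 6 libraries was analysed, 3 HSKO and 3 WT. Values are a deposited signal: the authors divided the reads of each gene row by 1 size factor per library, as the values show. Per the submitters' processing notes, FastQC 0.11.3, Bowtie, RSEM 1.2.9, DESeq 1.16.0 and mm10 were used. The sources used here do not give the annotation, filters or strand setting, so reads of overlapping genes and near-identical copies may be shared. Dividing by the smallest value of each library gave whole reads for 100% of values (tolerance 0.001).

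The test was limma 3.58.1 (R 4.3.3) on log2(value + 1) with a mean-variance trend, over 2750 rows with a mean of at least 10, HSKO minus WT, two-sided. This scale understates changes of low genes. On simulated data for HSKO against WT with 2603 rows 46 of 93 rows with a simulated 2-fold change and 79 of 80 with a 4-fold change were recovered, with 4 false calls among 129. The simulation changed a small part of the rows, equally up and down, with a common dispersion of 0.0401. It used the true size factors, so it could not show errors that come from scaling. On the recovered reads DESeq2 1.42.0 called 325 rows lower and 584 higher, and edgeR 4.0.16 601 lower and 684 higher. Intervals are exact (SciPy 1.17.1) and cover counting error only. No 2 libraries agreed within counting noise (chi-square over its degrees of freedom 2.12 to 21.0), so none was treated as a duplicate of another. The lowest value, 2.12, was that of HSKO replicates 1 and 2, and the next was 5.85 for WT replicates 2 and 3. HSKO replicate 3 stood at 7.71 and 8.68 against HSKO replicates 1 and 2. Differences beyond counting noise do not show that libraries came from separate mice. Positions, lengths and shared 50-base stretches are from GENCODE M21 on mm10. Members and lists were chosen with earlier results of these data known. Named genes were the members, other transferases with reads, Abca1, the regulators, BC071253 and, per list and direction, the 3 called members with the smallest p. One regulator is not reported here. Gclc, the Slc7a11 row, Marco and Alb were named outside this rule after their values were seen.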

Additional observations from a re-analysis of the deposited data

How the results depend on the processing

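The number of members called lower, 2 with the deposited scaling, was 4 with upper quartile scaling, quantile normalization, edgeR with TMM and both scalings to total reads. It was 1 with no filter and with no trend, and 0 with scaling to hepatocyte markers. Leaving out 1 library gave 1 to 4. Without WT replicate 2 the count stayed at 2, but Gstp1 was called and Mgst1 was not. The number called higher was 0 in every fit run. Gsta3 kept its call in 19 of 20 alternatives, Mgst1 in 15, and Gstp1 and Gstm1 gained one in 9 and 6. Their log2 fold changes ranged from -1.81 to -0.57, -1.39 to -0.15, -1.29 to -0.06 and -1.24 to -0.001.

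The 2 fits with another filter tested other numbers of rows. With no filter, 211 of 13807 rows were called lower and 624 higher. With a mean of at least 50, 118 of 688 rows were lower and 391 higher, beside 320 and 783 of 2750 in the main fit. Of the 2750 rows, those called lower numbered 703 with upper quartile scaling, 502 with quantile normalization and 601 with edgeR. They numbered 1044 with total reads, 913 with total reads less BC071253 and 21 with hepatocyte markers. Leaving out 1 library gave 157 (without WT replicate 3) to 313, with 159 without WT replicate 2. Those called higher numbered 221 with total reads and 429 with total reads less BC071253, and 581 to 822 when 1 library was left out. The median of all rows shifted by -0.28 with upper quartile scaling, -0.20 with edgeR, -0.13 with DESeq2, -0.64 and -0.47 with the scalings to total reads and 0.54 with hepatocyte markers. The largest shift, 0.80, came with a mean of at least 50, so the median depended on the level of the rows.

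Replicate numbers did not pair the libraries (correlations of deviations -0.03, -0.03 and -0.02). With the replicate block 2 members were lower and 0 higher, and 269 rows were lower and 751 higher. Depth limits the 6 untested members, whose libraries held at most 26 reads.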
